A study of Mus musculus with 6 samples.

Results

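The 9 genes described here include the transforming growth factor beta (TGF-beta) ligands (Tgfb1, Tgfb2 and Tgfb3) and their receptors (Tgfbr1, Tgfbr2 and Tgfbr3). Ltbp1 and Ltbp2 are of the latent binding protein family, and Tgfbi is a target gene that is named for its induction. The 9 genes were chosen by symbol and mapped to the Ensembl identifiers of the count table. It lists 55401 genes, 29043 of them with at least 1 count. All 9 had enough reads to be tested, with at least 232 counts in every library.

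RNA-seq was carried out on C3H10T1/2 cells, a mouse mesenchymal stem cell line that can be turned towards bone, fat or cartilage cells, to ask how NFIB and MLL1 shape the transcriptome during osteogenic differentiation. NFIB is a transcription factor of the nuclear factor I family, and MLL1, encoded by Kmt2a, is a methyltransferase for histone H3 lysine 4. Cells carried a control hairpin (shControl), a hairpin against Nfib (shNFIB) or a hairpin against Kmt2a (shMLL1), and each line was sampled untreated at day 0 and at day 7 of culture in osteogenic medium, in which dexamethasone was at 0.1 μM, β-glycerophosphate at 20 mM and ascorbic acid 2-phosphate at 100 μg/ml. Each of the 6 conditions is 1 library, so no condition has a replicate, and whether a hairpin line is a pool or a clone is not given in the sources used here. A knockdown line differs from shControl in its hairpin and in its history as a separate line, and these cannot be told apart; day 7 differs from day 0 both in time and in medium.

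TGF-beta is secreted in a latent form, bound to its own propeptide and, in many cells, to a latent TGF-beta binding protein that tethers the complex to fibrillin in the matrix. Once released, the ligand binds the type II receptor (Tgfbr2), which recruits and phosphorylates the type I receptor (Tgfbr1), and this in turn phosphorylates Smad2 and Smad3. Betaglycan (Tgfbr3) presents ligand, TGF-beta 2 in particular, to the signaling receptors. In mesenchymal cells the pathway is known for driving matrix synthesis and for restraining late osteoblast and adipocyte maturation.

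Promoter sequences are shown for the members whose level differed by more than 2-fold from shControl in a knockdown line, which were Ltbp2, Tgfb2 and Tgfbi. RefSeq promoter windows (GRCm38.p6) were matched for 7 of the 9 genes, in 9 windows, and the 250 bases before each start were searched on both strands for the SMAD element CAGAC, the palindromic SMAD box GTCTAGAC, the NFI element TTGGC and the NFI palindrome, in which TTGGC and GCCAA lie 5 bases apart. CAGAC or its complement GTCTG was present in 7 of the 9 windows and in 42.2% of all 32851 windows of the same length. TTGGC or its complement GCCAA was present in 6 of the 9 and in 41.5% of all. Neither the SMAD box (0.167% of all windows) nor the NFI palindrome (0.0365%) was present in any of the 9, which says only that these letters are not in these windows. The printed bases stop where the gene begins in GENCODE M21, run 5′ to 3′ on the strand of the gene, and carry both elements, in either orientation, in capitals. They come from chr12:84876533-84876741 (minus strand) for Ltbp2, chr1:186705990-186706239 (minus strand) for Tgfb2 and chr13:56609336-56609522 (plus strand) for Tgfbi.
Ltbp2: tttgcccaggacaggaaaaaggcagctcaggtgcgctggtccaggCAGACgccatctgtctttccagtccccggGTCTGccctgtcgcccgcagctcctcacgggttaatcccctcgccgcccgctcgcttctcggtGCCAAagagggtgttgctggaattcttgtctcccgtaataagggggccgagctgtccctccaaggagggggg
Tgfb2: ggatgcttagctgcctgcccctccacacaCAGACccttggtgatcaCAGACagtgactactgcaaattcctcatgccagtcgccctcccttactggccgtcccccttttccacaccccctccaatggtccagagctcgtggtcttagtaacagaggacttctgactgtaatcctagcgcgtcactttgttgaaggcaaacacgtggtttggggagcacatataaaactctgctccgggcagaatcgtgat
Tgfbi: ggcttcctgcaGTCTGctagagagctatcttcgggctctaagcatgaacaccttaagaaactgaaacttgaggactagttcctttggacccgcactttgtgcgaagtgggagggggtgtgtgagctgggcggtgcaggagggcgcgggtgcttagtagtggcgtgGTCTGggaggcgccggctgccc

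The libraries held between 21608680 and 34774066 counts. The hairpin targets were lower in their own lines. Nfib was at 116 and 83.5 CPM (the count per 1e6 counts of the library, scaled for composition) in shControl at day 0 and day 7 and at 35.3 and 8.15 in shNFIB, while shMLL1 had 65.5 and 72.7. Kmt2a was at 74.7 and 66.3 in shControl and at 30.9 and 34.8 in shMLL1, while shNFIB had 86.5 and 94.1. Of 8 mesenchymal markers, all except Nt5e were above 3 counts in every library, with summed levels of 2930 to 9680 CPM. Of 6 blood and endothelial markers, Ptprc, Adgre1, Cdh5 and Kdr were at or under 3 counts in all 6 libraries. Cd14 was above 3 counts in every library, and Pecam1 in all except shNFIB at day 7 and shMLL1 at day 0. The 6 markers summed to 11.5 to 23.4 CPM. The 7 osteoblast markers summed to only 2.44 to 16.6 CPM. Ibsp was at or under 3 counts throughout, also at day 7, while Phex and Ifitm5 were above 3 counts in every library. Adipocyte markers summed to 18.8 to 115 CPM. Adipoq was at or under 3 counts in every library, and Plin1 in each day 0 library but in no day 7 library. Chondrocyte markers summed to 81.5 to 411 CPM, with Acan and Matn1 at or under 3 counts, and smooth muscle markers to 43.2 to 179 CPM. In bulk RNA, fewer cells of a type and less RNA per cell cannot be told apart.

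Per kilobase of exon, Ltbp2 had the highest level of the 9 genes in shControl at day 0. Which gene had the lowest depended on the length used. The levels were 70.1 CPM per kb for Ltbp2, 26.8 for Tgfbr2, 15.4 for Tgfb3, 10.3 for Tgfb2 and 9.23 for Tgfbr1. They were 6.35 for Tgfb1, 4.54 for Tgfbi, 3.69 for Tgfbr3 and 2.94 for Ltbp1. No neighbours in this order had overlapping 95% counting intervals, but the spread between cultures is unknown and the order depends on the exons counted. With those of protein-coding transcripts alone, Tgfb1 stood at 14.7, above Tgfb2 at 11.5, and Ltbp1 stood at 4.52, above Tgfbr3 at 3.83, which was then the lowest. Ltbp2 ranked first in 5 of the 6 libraries, although in shMLL1 at day 0 it and Tgfbr2 both stood at 14.4. In shMLL1 at day 7 it ranked sixth, at 5.67 CPM per kb, and Tgfbr2 came first at 18.6.

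**Figure D1:**
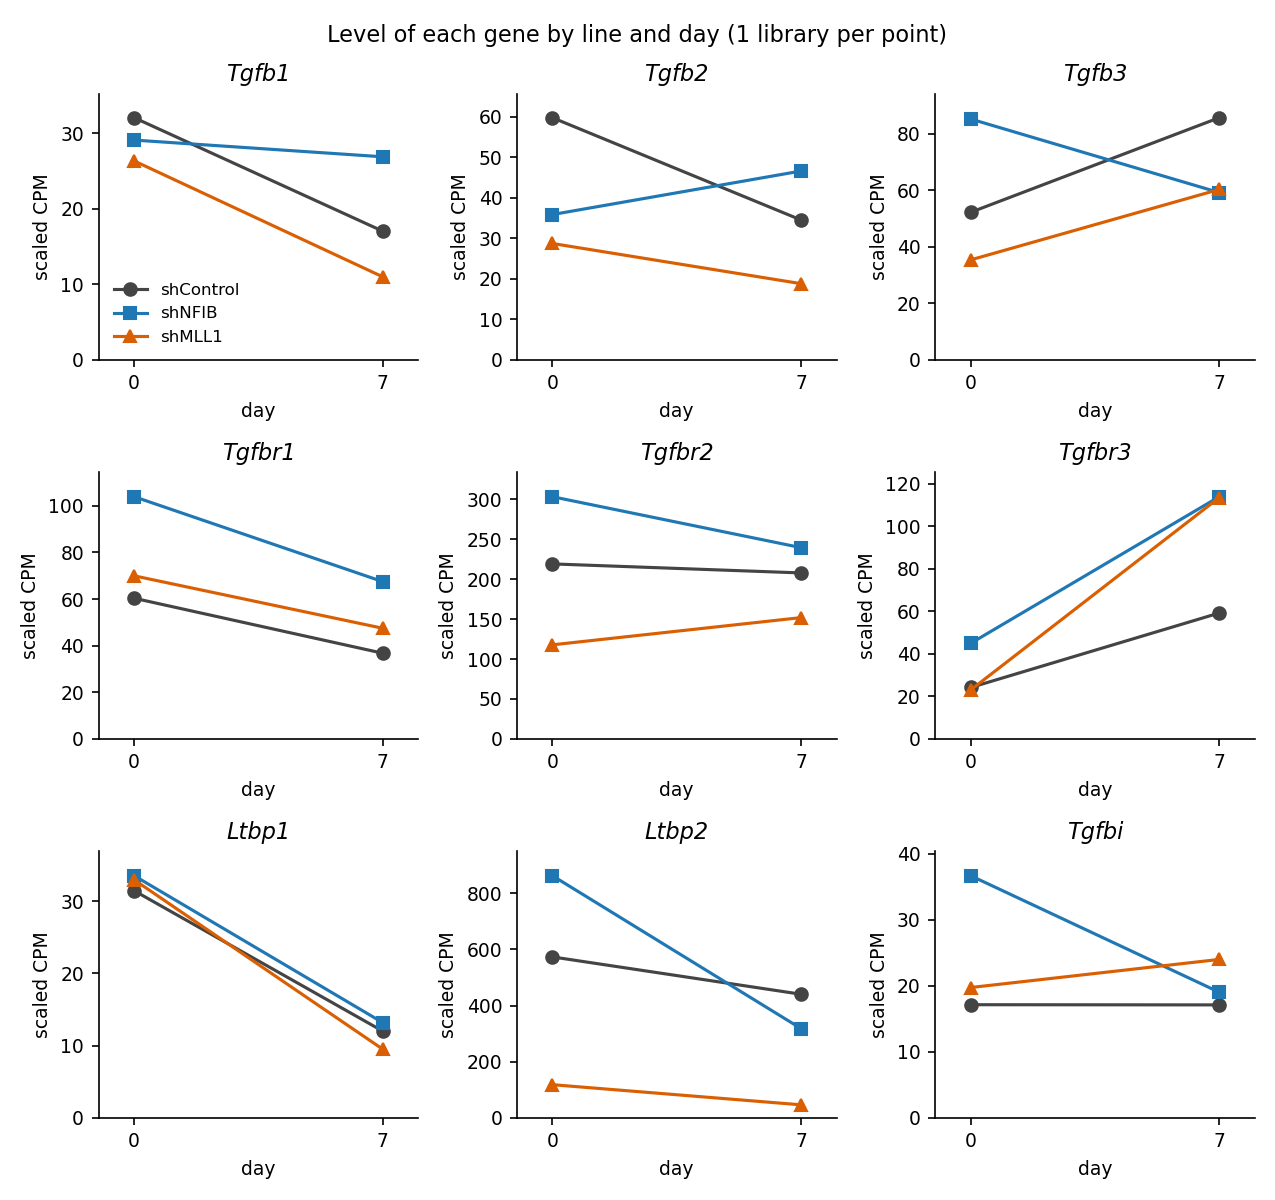
Composition-scaled CPM (y axis, from 0) of each of the 9 genes at day 0 and day 7 (x axis); each point is 1 library, and lines join the days of shControl (circles), shNFIB (squares) and shMLL1 (triangles). Tgfbr3 was higher and Ltbp1 lower at day 7 in every line, and Ltbp2 was lowest in shMLL1 at both days, at 118 and 46.4 CPM.

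The first question was how the genes moved between day 0 and day 7, the contrast with 3 libraries on each side. Fitted over the 3 lines with edgeR's quasi-likelihood test, 1 of the 9 genes rose, against 17.2% of the 15741 genes tested, and 3 fell, against 17.3%. The median over the 9 was -0.34 on the log2 scale, against -0.02 over all genes tested. Tgfbr3 rose, and Ltbp1, Ltbp2 and Tgfbr1 fell. The markers moved with the day too. The 8 mesenchymal markers summed to 6910 CPM at day 0 and 3360 at day 7 in shControl, to 9680 and 5430 in shNFIB and to 4490 and 2930 in shMLL1, and of the 7 tested 4 fell and 1 rose. The adipocyte markers summed to 51.0 and 115 in shControl, to 63.7 and 105 in shNFIB and to 18.8 and 29.5 in shMLL1, and of the 4 tested 1 rose. Plin1 and Lpl were not among these 4. In shControl they went from 0 and 0.188 CPM at day 0 to 15.5 and 35.6 at day 7, while Cebpa, tested but not called, was lower at day 7 in every line. The osteoblast markers summed to 2.44 and 8.2 in shControl, to 3.36 and 16.6 in shNFIB and to 7.55 and 9.3 in shMLL1. The sums hide which markers were present. At day 7, 6 of the 7 were above 3 counts in shControl, 3 in shNFIB and 3 in shMLL1. Sp7 and Bglap were at or under 3 counts on both days in shNFIB and shMLL1. So was Dmp1 in shNFIB, and Alpl in shMLL1. Of the 2 osteoblast markers tested 1 rose, Ifitm5. In shControl, Alpl went from 0.219 to 3.64 CPM, and Phex from 1.66 to 0.82. The chondrocyte markers summed to 411 and 155 in shControl, to 270 and 95.6 in shNFIB and to 81.5 and 112 in shMLL1. Of the 3 tested, Comp rose, at 4.66 (adjusted p = 0.00058), and Col2a1 fell, at -4.49 (adjusted p = 0.00767). The part of these markers' cells in the results was not tested. Within single lines, where no test is possible, a gene was counted when its level differed by more than 2-fold. This held for 2 of the 9 in shControl (37.9% of all genes with at least 10 counts in either library), 3 of 9 in shNFIB (30.5%) and 4 of 9 in shMLL1 (45.6%). Each of these shares is near or below the background of its own comparison.

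**Figure D2:**
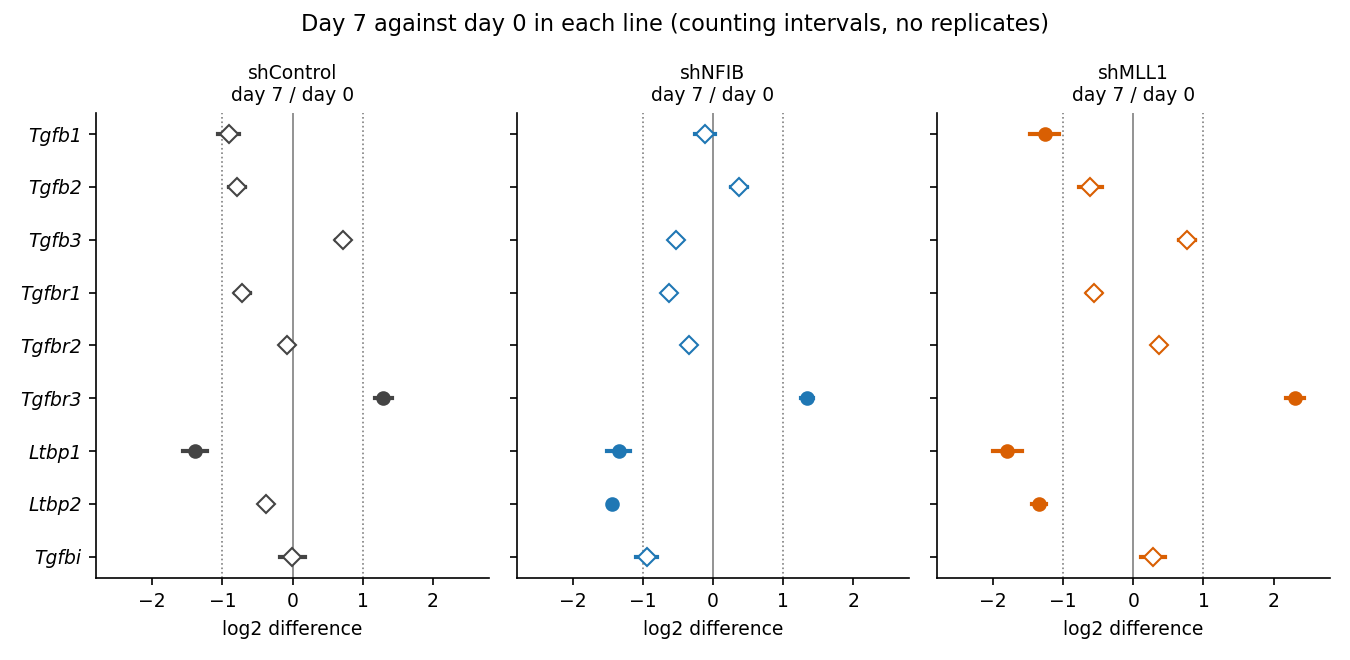
Log2 difference of day 7 against day 0 (x axis) for the 9 genes (y axis) in shControl, shNFIB and shMLL1; bars are 95% counting intervals, filled circles lie past 2-fold, open diamonds do not, and dotted lines mark 2-fold. Tgfbr3 lies to the right at 1.29, 1.34 and 2.30, Ltbp1 to the left at -1.39, -1.35 and -1.79, and Tgfb2 and Tgfb3 on opposite sides in shNFIB and the other lines.

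Among the ligands, none passed the test for the day in this fit, although Tgfb1 was called lower under 3 of 8 alternatives. Tgfb1 (ENSMUSG00000002603, chr7:25687002-25705077), the most widely studied isoform, was at 32.0 CPM at day 0 and 17.0 at day 7 in shControl, at 29.1 and 26.9 in shNFIB and at 26.3 and 10.98 in shMLL1. It was lower at day 7 in every line, although the shNFIB level at day 7 lay within the range of the day 0 libraries. The fitted difference was -0.76 (SE 0.263) with an adjusted p of 0.0629, and of 0.019 to 0.238 over the alternatives; DESeq2, the fit to all genes with a count and the fit without shNFIB called it. Within lines the log2 difference was -0.91 in shControl, -0.11 in shNFIB, with a counting interval of -0.25 to 0.02 that included 0, and -1.26 in shMLL1, the only one past 2-fold.

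Tgfb2 (ENSMUSG00000039239, chr1:186622792-186705989), whose product depends on betaglycan for efficient receptor binding, was at 59.8 CPM at day 0 and 34.5 at day 7 in shControl, at 35.9 and 46.6 in shNFIB and at 28.7 and 18.8 in shMLL1. The level was thus lower at day 7 in shControl and shMLL1 and higher in shNFIB. The differences were -0.79 (-0.90 to -0.68), -0.61 (-0.78 to -0.45) and 0.38 (0.26 to 0.49), with 95% counting intervals in brackets. The fit over the lines gave -0.34 (adjusted p = 0.343).

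Tgfb3 (ENSMUSG00000021253, chr12:86056745-86079041) had the reverse order of days. It was at 52.2 CPM at day 0 and 85.7 at day 7 in shControl, at 35.4 and 60.3 in shMLL1, and at 85.2 and 59.2 in shNFIB. The day 7 level was higher in shControl by 0.71 (0.63 to 0.80) and in shMLL1 by 0.77 (0.66 to 0.88), and in shNFIB the difference was -0.53 (-0.61 to -0.44). With 1 library per line and day, whether the lines differ in these responses could not be tested. Over the lines the fit gave 0.33 (adjusted p = 0.407). Tgfb3 shares its locus with Ttll5 on the opposite strand. Ttll5 had 329 to 823 counts, and up to 72.7% of the Tgfb3 count in a library. Whether the counting used strand is not given in the sources used here, and the part of Ttll5 reads in the Tgfb3 levels was not tested.

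The receptors moved in different directions. Tgfbr1 (ENSMUSG00000007613, chr4:47353222-47414931), the type I receptor kinase, was at 60.3 CPM at day 0 and 36.7 at day 7 in shControl, at 104 and 67.5 in shNFIB and at 70.0 and 47.5 in shMLL1. It was lower at day 7 in each line, while the 2 groups of libraries overlapped because shNFIB stood highest on both days. The fitted fall was -0.63 (SE 0.170; adjusted p = 0.0295), less than 2-fold. It was called under 4 of 8 alternatives, with adjusted p from 0.0096 to 0.191. It was not called without shControl (adjusted p = 0.191), without shNFIB (0.0974), with library size alone (0.0694) or with no block for the line (0.159).

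Tgfbr2 (ENSMUSG00000032440, chr9:116084293-116175360), the type II receptor that binds ligand first, was at 219 CPM at day 0 and 208 at day 7 in shControl, at 303 and 239.6 in shNFIB and at 118 and 152 in shMLL1. The difference between days was -0.08 in shControl, -0.34 in shNFIB and 0.37 in shMLL1, and the fit gave -0.02 (adjusted p = 0.959). The order of the lines, shNFIB above shControl above shMLL1, was the same at both days.

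Tgfbr3 (ENSMUSG00000029287, chr5:107106570-107289629), the coreceptor betaglycan, rose in the fit by 1.64 (SE 0.252) on the log2 scale (adjusted p = 0.00518). It was at 24.2 CPM at day 0 and 59.2 at day 7 in shControl, at 45.0 and 114 in shNFIB and at 23.0 and 114 in shMLL1. Every day 7 library lay above every day 0 library. The level was 2.45-fold higher at day 7 in shControl, 2.53-fold in shNFIB and 4.94-fold in shMLL1. This was the receptor called under 8 of 8 alternatives, with adjusted p from 1.61e-07 to 0.0167.

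Tgfbr3 ranged 4.96-fold over the 6 libraries, and Ltbp2 18.6-fold; these were the only members past 4-fold. Among 13339 genes that reached 10 counts in each of the libraries, the 3 whose log2 profile over the 6 libraries lay closest to that of Tgfbr3 were Rab3il1 (root mean square difference 0.148), Plekha6 (0.18) and Mitf (0.182). Rab3il1 encodes an exchange factor for a Rab GTPase, and Mitf a transcription factor best known from melanocytes and osteoclasts. Mitf was at 5.85, 7.85 and 5.77 CPM at day 0 and at 13.2, 28.6 and 24.3 at day 7 in shControl, shNFIB and shMLL1. The profiles share the same 6 libraries and are given as a description.

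Ltbp1 and Ltbp2 both fell from day 0 to day 7. Ltbp1 (ENSMUSG00000001870, chr17:75005568-75392512), which covalently binds the latent TGF-beta complex, was at 31.5 CPM at day 0 and 12.01 at day 7 in shControl, at 33.5 and 13.2 in shNFIB and at 33.0 and 9.51 in shMLL1. The 3 lines lay close together on each day, and the days did not overlap. The fall was -1.51 (SE 0.205; adjusted p = 0.00341), and within lines it came to 0.382-fold, 0.394-fold and 0.288-fold of the day 0 level. Ltbp1 was called under 8 of 8 alternatives, with adjusted p from 5.4e-08 to 0.0185.

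Ltbp2 (ENSMUSG00000002020, chr12:84783212-84876532) encodes a microfibril protein of the same family that does not bind latent TGF-beta itself. It was at 573 CPM at day 0 and 440.4 at day 7 in shControl, at 863 and 318 in shNFIB and at 118 and 46.4 in shMLL1. Each line was lower at day 7, but the 3 lines began from levels so far apart that the days overlapped. The fall was -1.06 (SE 0.281; adjusted p = 0.0286), and the within-line differences were -0.38 in shControl, -1.44 in shNFIB and -1.35 in shMLL1. It was called under 6 of 8 alternatives, with adjusted p from 0.00147 to 0.437, and not without shNFIB (adjusted p = 0.0964) or with no block for the line (0.437).

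Tgfbi (ENSMUSG00000035493, chr13:56609523-56639562), a secreted matrix protein induced by TGF-beta in many cells, was at 17.1 CPM on both days in shControl. It was at 36.6 at day 0 and 19.0 at day 7 in shNFIB, and at 19.7 and 24.0 in shMLL1. The shNFIB library at day 0 was the high one, and the other 5 lay between 17.1 and 24.0. The fitted day effect was -0.22 (adjusted p = 0.56).

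The second question was how each knockdown line differed from shControl at the same day. Both lines were compared with the same shControl libraries, so the comparisons are not independent of each other. In shNFIB, 1 of the 9 genes differed by more than 2-fold at day 0 (13.6% of all genes) and 0 of 9 at day 7 (21.3%). In shMLL1 it was 2 of 9 at day 0 (20.4%) and 1 of 9 at day 7 (15.5%). Over both days, edgeR called 0 of the 9 in shNFIB (0.254% of all genes) and 0 of the 9 in shMLL1 (0.0318%). The same fit did not call the hairpin targets in their own lines either. Nfib was at -2.39 in shNFIB (adjusted p = 0.158) and Kmt2a at -1.10 in shMLL1 (adjusted p = 0.168). The lack of a call therefore does not show that a gene was unchanged. At an unadjusted p under 0.05 the fit had 2 of the 9 in shNFIB, Tgfbr1 and Tgfbr3, against 12.4% of all genes tested, and 3 in shMLL1, Ltbp2, Tgfb2 and Tgfbr2, against 9.17%. DESeq2 called 0 in shNFIB, against 3.82% of all genes with an adjusted p, and 1 in shMLL1, Ltbp2, against 2.46%.

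**Figure D3:**
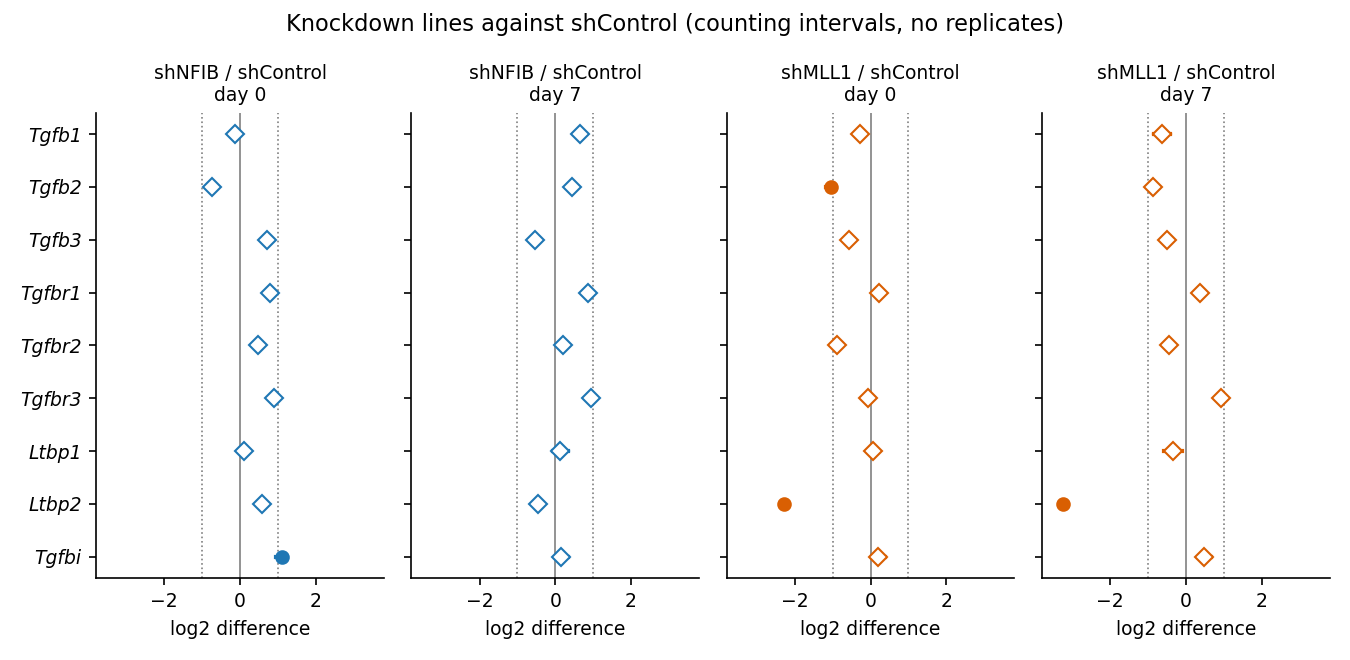
Log2 difference from shControl (x axis) of the 9 genes (y axis) in shNFIB (blue) and shMLL1 (orange) at day 0 and day 7; bars are 95% counting intervals, many narrower than their symbol, filled circles lie past 2-fold, open diamonds do not, and dotted lines mark 2-fold. Ltbp2 in shMLL1 lies farthest from 0, at -2.28 and -3.25.

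Ltbp2 in shMLL1 was the widest difference among the members. At day 0 it stood at 118 CPM against 573 in shControl, 0.206-fold, a log2 difference of -2.28 (-2.33 to -2.23). At day 7 it stood at 46.4 against 440.4, 0.105-fold, a log2 difference of -3.25 (-3.34 to -3.16). The estimate over both days was -2.79 (SE 0.361), with an adjusted p of 0.106 in the edgeR fit and of 2.56e-11 to 0.105 over 5 alternatives, 3 of which called it. In shNFIB the level was 863 CPM at day 0, 1.504-fold that of shControl, and 318 at day 7, 0.723-fold. The 8 mesenchymal markers, too, summed to less in the shMLL1 libraries, to 4490 CPM against 6910 in shControl at day 0 and to 2930 against 3360 at day 7. Vim alone made up 4153 of the 6910 CPM. Of the markers tested, Thy1, Itgb1 and Vim were lower in shMLL1 at both days and Ly6a was higher at both. Cd44, Pdgfra and Pdgfrb differed in direction between the days. The part of these markers in the result was not tested. D030025P21Rik, annotated antisense to Ltbp2, had 370 and 84 counts in shControl and 186 and 10 in shMLL1, and at most 5.22% of the Ltbp2 count in any library.

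The genes with profiles closest to Ltbp2 were Six2 (root mean square difference 0.317), Naalad2 (0.516) and Mgll (0.543). Six2, a homeobox transcription factor known from nephron and craniofacial progenitors, was at 36.9 and 17.1 CPM in shControl, at 51.3 and 19.8 in shNFIB and at 8.55 and 2.05 in shMLL1 at day 0 and day 7. Naalad2 was at 73.1 and 71.5 in shControl and at 11.1 and 10.2 in shMLL1. These 3 genes were picked for profiles close to that of Ltbp2, so their low levels in shMLL1 follow from the choice and are given as a description. Tgfb3 lies 1.18 Mb from Ltbp2 on chromosome 12, and its level in shMLL1 was 0.678-fold that of shControl at day 0 and 0.704-fold at day 7.

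All 3 ligands stood below shControl in shMLL1 on both days. Tgfb2 was at 28.7 against 59.8 CPM at day 0, a log2 difference of -1.06 (-1.18 to -0.94), and at 18.8 against 34.5 at day 7, a difference of -0.88 (-1.04 to -0.72). Only the day 0 difference was past 2-fold, and over both days Tgfb2 gave -0.98 (SE 0.324; adjusted p = 0.423). Tgfb1 was lower by -0.28 (-0.42 to -0.15) at day 0 and by -0.63 (-0.85 to -0.42) at day 7. In shNFIB the ligands took no common direction. Tgfb2 was at -0.74 from shControl at day 0 and at 0.43 at day 7, while Tgfb3 was at 0.71 and -0.53.

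The receptors stood above shControl in shNFIB on both days. So did the summed mesenchymal markers, at 9680 against 6910 CPM at day 0 and 5430 against 3360 at day 7. Of the 7 tested, only Thy1 was called, higher by 2.36 (adjusted p = 0.0352), and 6 were not. Pdgfra differed in direction between the days, and the other tested markers were higher at both. The part of these markers in the receptor levels was not tested. Tgfbr1 was 1.72-fold at day 0 and 1.84-fold at day 7, which gave 0.83 (SE 0.208; adjusted p = 0.205) over both days. Tgfbr3 was 1.86-fold and 1.92-fold, which gave 0.92 (SE 0.301; adjusted p = 0.302). Tgfbr2 was 1.38-fold and 1.15-fold, with an adjusted p of 0.63. In shMLL1 the receptors split, with Tgfbr2 at 0.538-fold and 0.731-fold of shControl, Tgfbr1 at 1.16-fold and 1.29-fold, and Tgfbr3 at 0.952-fold at day 0, where the counting interval included 0 on the log2 scale, and at 1.92-fold at day 7. Tgfbi was past 2-fold only in shNFIB at day 0, at 2.14-fold, with a log2 counting interval of 0.95 to 1.25. Ltbp1 was at 1.066-fold and 1.099-fold of shControl in shNFIB and at 1.05-fold and 0.792-fold in shMLL1.

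Other genes of the pathway were followed in 4 lists of 52 genes, of which 48 could be tested. For the day, 3 of the 48 rose (17.2% of all genes tested) and 14 fell (17.3%), and the median was -0.37, against -0.02 over all genes tested. Of 10 tested genes that hold or activate the latent complex, 0 rose and 2 fell, with a median of 0.04. Of 3 further receptors and coreceptors 1 fell. Of 16 Smads and Smad regulators 0 rose and 5 fell, with a median of -0.35; of 19 target genes 3 rose and 6 fell, with a median of -0.89. The same 17.2% and 17.3% of all genes are the background for each list.

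**Figure D4:**
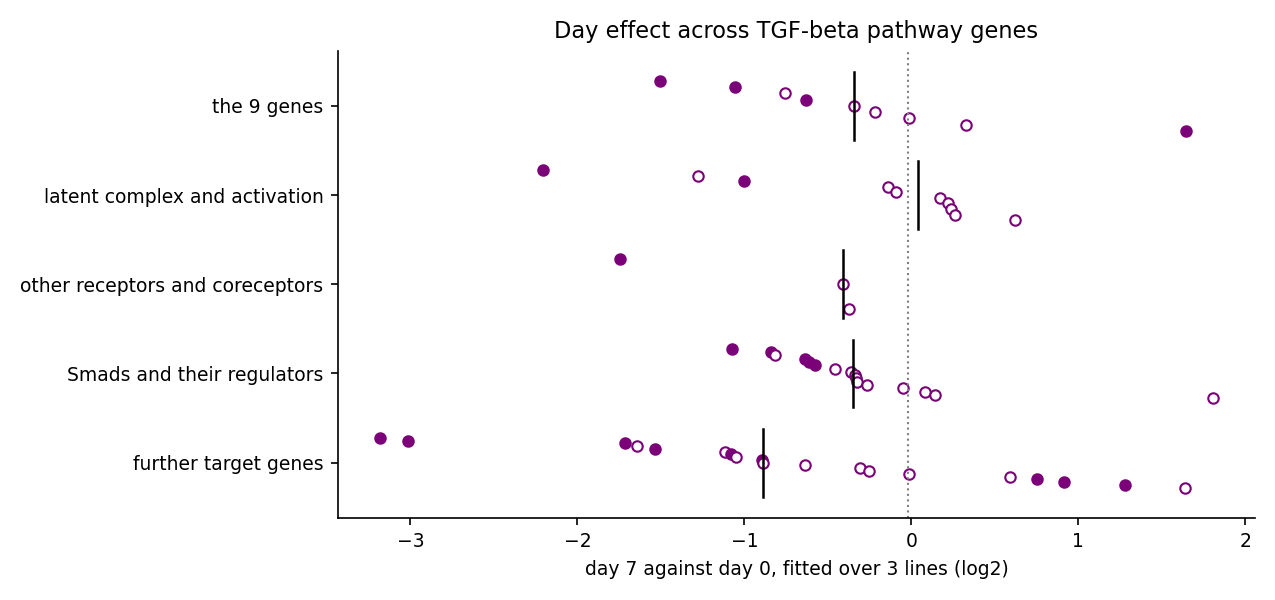
Day 7 against day 0 fitted over the 3 lines (x axis, log2) for each tested gene of the TGF-beta pathway by role (y axis); each point is 1 gene, filled points passed edgeR's test, black bars are list medians and the dotted line is the median of all genes tested. The target genes spread the most, from -3.18 for Tnc upward, and 6 of the 9 called targets fell.

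The latent complex binds fibrillin, and Fbn1, which encodes fibrillin-1, fell together with Ltbp1. It went from 259.7 to 58.0 CPM in shControl, from 730.1 to 115 in shNFIB and from 236 to 67.9 in shMLL1, a fitted difference of -2.21 (adjusted p = 0.00175). Itgav, the integrin chain that binds latent TGF-beta, fell by 1.00 on the log2 scale (adjusted p = 0.0146). Cd109, a membrane protein that acts as a TGF-beta coreceptor and inhibitor, fell by 1.74 (adjusted p = 0.00165).

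Among the Smads, the receptor-regulated Smad2 fell by 0.64 and the shared Smad4 by 0.58, while Smad3 was at 0.14 (adjusted p = 0.563). The deubiquitinase Usp15 fell by 1.08, the ubiquitin ligase Smurf2 by 0.84 and the corepressor Ski by 0.61. The inhibitory Smad6 and Smad7 were at -0.33 (adjusted p = 0.358) and -0.33 (adjusted p = 0.416). The called genes thus include some that carry the signal and some that restrain it.

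Of the target genes, Acta2, smooth muscle actin, went from 1516 to 255 CPM in shControl, from 1491 to 130.1 in shNFIB and from 1273 to 163 in shMLL1. The fitted fall was -3.02 (adjusted p = 0.00113). The matrix glycoprotein Tnc fell by 3.18 (adjusted p = 0.0088) and the immediate TGF-beta response gene Klf10 by 1.54 (adjusted p = 0.00457), each past 2-fold in 3 of 3 lines. Fn1, Lox and Ccn2 also fell, by 1.72, 1.08 and 0.89. Tsc22d1, Postn and Snai1 rose, by 1.28, 0.91 and 0.75. The smooth muscle markers outside these lists had 1 gene that rose, Myh11, and 1 that fell, Actg2, and their summed level was 83.8 CPM at day 0 and 103 at day 7 in shControl, 59.8 and 57.1 in shNFIB, and in shMLL1 43.2 and 179. The part of such cells in the fall of Acta2 was not tested.

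Against shControl, edgeR called 0 of the 48 pathway genes in either knockdown line. That fit did not call Nfib or Kmt2a in their own lines either. At an unadjusted p under 0.05 edgeR had 14 in shNFIB (12.4% of all genes tested) and 10 in shMLL1 (9.17%). DESeq2 called 6 and 3 (3.82% and 2.46% of all genes with an adjusted p). Counts sufficed for 49 pathway genes in each comparison with shControl. In shNFIB, 8 were past 2-fold higher and 4 lower at day 0, and 5 and 6 at day 7. In shMLL1 it was 4 and 8 at day 0, and 4 and 7 at day 7. Of all genes, 13.6% and 21.3% were past 2-fold either way in shNFIB, and 20.4% and 15.5% in shMLL1. Thbs1, whose product can activate latent TGF-beta, was past 2-fold higher in both knockdown lines at both days, against the same shControl libraries. It was at 40.3 and 32.1 CPM in shControl, at 84.0 and 143 in shNFIB and at 91.6 and 106 in shMLL1 at day 0 and day 7. In shNFIB at day 0 Thbs1 was only just past 2-fold. Library size alone shifted that comparison by -0.107 on the log2 scale, enough to bring it under. In shNFIB, fibrillin-2 (Fbn2) was 0.154-fold and 0.207-fold of shControl, and Adam12, a metalloprotease induced by TGF-beta, was 4.77-fold and 2.62-fold. Ltbp4 was 0.467-fold and 0.371-fold there, from only 24 to 76 counts. In shMLL1, the inhibitory Smad6 was at 5.80 and 7.01 CPM against 22.4 and 17.7 in shControl.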

How the data were processed

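RNA-seq read counts per gene were taken from 1 table of 6 libraries (3 hairpin lines at day 0 and day 7, 1 library per condition). The deposited values are raw counts: the authors trimmed paired reads with Trimmomatic 0.39, mapped them to GRCm38 (mm10) with HISAT2 2.2.1, filtered on mapping quality with SAMtools 1.12, removed PCR duplicates and counted reads per gene with HTSeq 0.11.1. The annotation release and the strand setting of the counting are not given in the sources used here. Totals ranged from 21608680 to 34774066 counts per library.

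Library scaling used TMM factors, and counts were fitted with edgeR 4.0.16 (R 4.3.3), by quasi-likelihood on line and day, over 15741 genes kept by filterByExpr with libraries grouped by day; p-values were adjusted by Benjamini-Hochberg and called under 0.05. Labels do not give separate cultures, so the spread is that between libraries of different lines or days, with 2 residual degrees of freedom. The line served as a block because both days came from the same line; the deviations of its days from the day means correlated at 0.434, 0.43 and 0.271. Pairs of libraries had no test: the log2 ratio of scaled counts (prior count 0.125) is given with the exact Clopper-Pearson 95% interval of the counts, which covers counting error only, and a difference past 2-fold was counted among genes with at least 10 counts in either library. Levels per kb used the exon union of GENCODE M21 on the same build, in which 55141 of the 55401 identifiers were found. DESeq2 1.42.0 was an alternative test. Scripts were tested on simulated data.

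All 9 members were named; other pathway genes were named where the day effect was called (with values past 2-fold in 3 lines for Fbn1, Cd109, Acta2, Tnc and Klf10) or where they were past 2-fold the same way at both days against shControl. Itgav, the further called Smads, Smad3, Smad6, Smad7 and targets, and the called smooth muscle markers, were named after their values were seen. The members and lists were chosen with earlier results of these data known.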

Additional observations from a re-analysis of the deposited data

Results flagged for a closer look

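In several members a difference between days, or from shControl, pointed in opposite directions in different lines or days, each beyond its counting interval. These differences were not tested, because 1 library per line and day leaves no residual degrees of freedom for an interaction. All values are log2 differences.

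Tgfb2 was at -0.79 from day 0 to day 7 in shControl and at -0.61 in shMLL1, but at 0.38 in shNFIB. Tgfb3 was at 0.71 in shControl and 0.77 in shMLL1, but at -0.53 in shNFIB. Tgfbr2 was at 0.37 in shMLL1, but at -0.077 in shControl and -0.34 in shNFIB. With library size alone the shControl value became 0.023, so its sign depended on the scaling. Tgfbi was at 0.28 in shMLL1 and -0.95 in shNFIB.

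For shNFIB against shControl, Tgfb1 was at -0.14 at day 0 and 0.66 at day 7. Tgfb2 was at -0.74 at day 0 and 0.43 at day 7, Tgfb3 at 0.71 and -0.53, and Ltbp2 at 0.59 and -0.47. The comparisons of one gene share libraries, so the values of one gene in different comparisons are not independent.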

How the results depend on the processing

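With 1 library per condition, no comparison at a single day or within a single line has replicate error, and a line effect that varies with the day enters the error of the fit over both days. Leaving out a day from the comparisons of lines was not run as a test, since no residual degrees of freedom would remain. No paired analysis by replicate number was possible because the labels give none; the line is the block. Of 162 fitted alternatives for single members, 145 kept direction and call, 6 lost the call, 6 gained it and 5 reversed. Library size alone shifted the median of all genes by up to 0.207 (shMLL1, day 7 against day 0).

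For the day, the number of members that fell went from 3 to 1 with no block for the line and to 4, with Tgfb1, under DESeq2 and with all genes that had a count; no block left 1808 of all genes lower. Leaving out a line gave 1005 to 2583 genes higher and 1103 to 2697 lower, the fewest without shControl. Tgfbr2 reversed to 0.12 with library size alone and ranged from -0.25 to 0.15 with a line left out, and Tgfbi from -0.51 to 0.14, both highest and reversed without shNFIB; none of these was called. Ltbp2 in shNFIB, at 0.03, became -0.000319 with DESeq2 size factors and -0.068 with library size alone, also uncalled. The cause was not tested.

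For shNFIB over both days, genes called higher and lower went from 12 and 28 to 341 and 347 with all genes that had a count, 299 and 315 with DESeq2, and 253 and 294 with the 4 libraries of the compared lines. For shMLL1 they went from 2 and 3 to 236 and 290, 171 and 239, and 84 and 110, and in each of these 1 member, Ltbp2, was called lower. Past 1.5-fold instead of 2-fold, the members counted between days were 6 in shControl and 5 in shNFIB, and against shControl 6 and 3 in shNFIB at day 0 and day 7 and 4 in shMLL1 at day 7. An exact test at an assumed biological coefficient of variation of 0.4 left 0 members in the 3 comparisons of days, in shNFIB at day 0 and in shMLL1 at both days; at 0.2 it left 0 in shNFIB at day 0 and 1 in shMLL1 at day 0. Tgfbi was no longer past 2-fold in shNFIB at day 0 with library size alone, which left 0, and Tgfb2 in shMLL1 at day 0 with DESeq2 size factors, which left 1; library size alone gave 2 in shMLL1 at day 7.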
